A study of Callithrix jacchus with 4 samples.

Results

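Astrocytes were described in single-nucleus RNA sequencing libraries from the cortex of the common marmoset, a small New World monkey, as the nuclei that the authors annotated Astro. There were 1768 of them among 36592 retained nuclei, with 86 in D0 replicate 1, 1335 in D0 replicate 2, 16 in Y2 replicate 1 and 331 in Y2 replicate 2. D0 is the neonatal age and Y2 the adult age of 2 years, and all animals were wild type. Each of the 4 libraries was made from somatosensory cortex of a separate animal, so that n is 2 libraries per age. The batch label follows the replicate number (replicate 1 is batch 1, replicate 2 is batch 2), so libraries of 1 age differed in animal and batch together.

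Astrocytes are the glial cells that clear glutamate and potassium from around synapses, feed neurons and cover blood vessels with their endfeet. They arise from the same radial glia as projection neurons, after neuron production has largely ended, and go on multiplying and branching after birth. Markers commonly used for them are AQP4, the water channel of the endfeet, GFAP, an intermediate filament protein, and SLC1A3, a glutamate transporter. The table lists labels of nuclei and no gene values, so these markers were not analysed here and the name Astro rests on the authors' annotation. Besides astrocytes the table lists 1 other glial type, the oligodendrocyte precursor cells (OPC), which divide and give rise to myelinating cells, and 8 types of neuron. The neurons are callosal (CPN), Layer IV, subcerebral (ScPN) and corticothalamic (CthPN) projection neurons, and interneurons named for a marker gene (Inh_Sst, Inh_Pvalb, Inh_Vip, Inh_Lamp5).

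The libraries held between 5622 and 14142 nuclei. A barcode sequence that also occurred in another library was found for 49 astrocytes (2.77%) and for 1307 of all nuclei (3.57%), and 2 such sequences were annotated Astro in more than 1 library. Barcodes carry a suffix for their library, and the suffixes ran up to 5 with 3 absent. The study's methods name 1 library more than the 4 analysed here, with 3 in batch 1 and 2 in batch 2. The libraries analysed here are 2 of each batch.

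The first question was how large a part of each library the astrocytes formed. They made up 1.33% of D0 replicate 1 (95% Wilson interval 1.08 to 1.64), 9.44% of D0 replicate 2 (8.97 to 9.93), 0.285% of Y2 replicate 1 (0.175 to 0.462) and 3.20% of Y2 replicate 2 (2.88 to 3.56). The order of the libraries was D0 replicate 2, Y2 replicate 2, D0 replicate 1 and Y2 replicate 1, and no intervals overlapped. The ages overlapped, since the adult library of batch 2 lay above the neonatal library of batch 1. The intervals take in counting error alone, not the variation from animal to animal. At D0 the mean share was 5.38% ± 5.74 (SD, n = 2). At Y2 it was 1.74% ± 2.06 (SD, n = 2), and the SD exceeded the mean at both ages. Over pooled nuclei the shares were 6.89% and 2.17%, but 75.5% of all astrocytes came from D0 replicate 2, which held 38.6% of all nuclei.

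**Figure D1:**
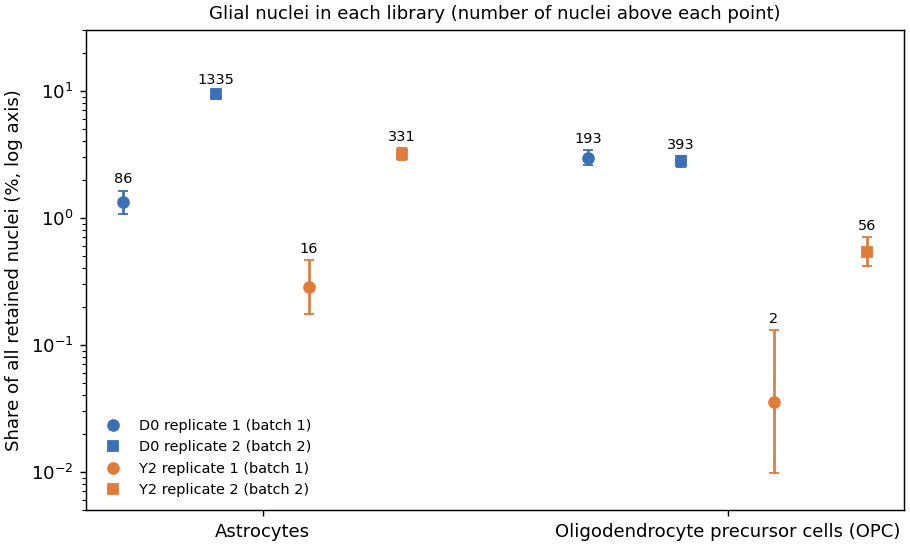
Share of all retained nuclei (%, log y axis) of astrocytes and of OPC (x axis) in each library, where colour gives the age (blue D0, orange Y2), shape the replicate (circle 1, square 2), the bars 95% Wilson intervals and the printed counts the number of nuclei. Astrocytes run from 0.285% to 9.44% with the ages overlapping, whereas both D0 libraries lie above both Y2 libraries for OPC.

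Ranked among the 10 types, astrocytes were 9th by share in D0 replicate 1 and in Y2 replicate 1, 4th in D0 replicate 2 and 6th in Y2 replicate 2. In D0 replicate 2 they stood beside Inh_Sst interneurons (9.33%), and the intervals of the 2 shares overlapped. In Y2 replicate 1 only OPC were rarer. Its 16 astrocytes have an exact 95% Poisson interval of 9.15 to 26.0, so every astrocyte value of that library rests on few nuclei.

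The comparison of ages asked whether astrocytes differed in share between neonatal and adult cortex. Within batch 1 the D0 share was 4.66-fold the Y2 share (counting interval 2.74 to 7.94) and within batch 2 it was 2.95-fold (2.62 to 3.32), so the share was lower at Y2 in both batches. Over the libraries the odds of a nucleus being an astrocyte were 3.80 times as high at D0 as at Y2, with a 95% interval from 0.177 to 81.8. The difference did not pass the test (log-odds difference -1.34 ± 1.13 SE, n = 2 per age, adjusted p = 0.332, limma over 10 types), while 30.0% of types did. With the replicate number as a block the same difference had an SE of 0.574, common to all types. The residual SD of astrocytes in that fit was 0.189. The interval of the D0 to Y2 odds ratio was then 1.06 to 13.7, with an adjusted p of 0.0787 (limma). Over 16 alternatives the difference kept its direction and the adjusted p ran from 0.00820 to 0.909.

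The size of this difference depended on which library was left out. Without Y2 replicate 2 the log-odds difference was -2.55 and passed the test (adjusted p = 0.00820, limma), in a fit that gave all types a common SE of 0.634 while the residual SD of astrocytes was 1.44. Without D0 replicate 1 it was -2.36 (adjusted p = 0.231). Without Y2 replicate 1 it was -0.126 (adjusted p = 0.909) and without D0 replicate 2 it was -0.315 (adjusted p = 0.894). All 4 values were negative, and each fit with a library left out takes the lone library of an age to vary like the others.

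**Figure D2:**
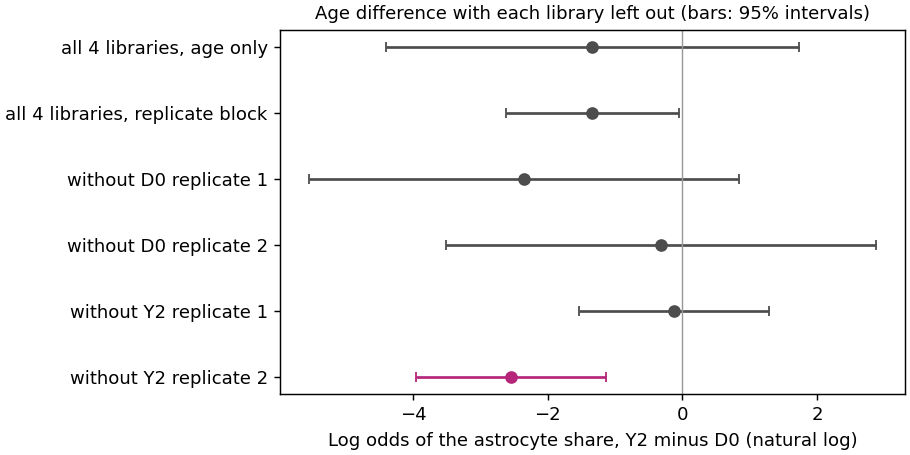
Difference in the log odds of the astrocyte share, Y2 minus D0 (x axis, natural log), from limma with all libraries, with the replicate block and with each library left out (y axis), with bars for 95% intervals and the fit that passed the test in magenta. Every point lies below 0, and the values run from -2.55 to -0.126 with the left-out library.

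OPC, the other glial type, differed from astrocytes in how their libraries were placed. In replicate 1 they were 2.98% of nuclei at D0 and 0.0356% at Y2, and in replicate 2 they were 2.78% and 0.541%. Their ages did not overlap. Their share in D0 replicate 2 was 0.933-fold that in D0 replicate 1, where that of astrocytes was 7.12-fold. The D0 to Y2 fold of OPC was 83.7 in batch 1, which rests on 2 adult OPC nuclei, and 5.13 in batch 2. Both folds were above those of astrocytes. OPC did not pass the test of age (adjusted p = 0.0747, limma). They passed on the arcsine (adjusted p = 0.0465, limma) and centred log-ratio (0.0359) scales. They also passed in the fit with the replicate block (adjusted p = 0.00222, limma), where the SE of 0.574 was common to all types and the residual SD of OPC was 1.29. In the other alternatives with all 4 libraries OPC did not pass. Their adjusted p there ran from 0.0639 (limma, 1 nucleus added) to 0.240 (quasi-binomial model). On the centred log-ratio scale without Inh_Lamp5 it was 0.0890 (limma).

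The second question was how far libraries of the same age differed in astrocytes. The share in replicate 2 was 7.12-fold that in replicate 1 at D0 (counting interval 5.73 to 8.83) and 11.2-fold at Y2 (6.81 to 18.5). Of the other types, the largest such fold at D0 was 1.28 (CthPN), and the median over types with nuclei at D0 was 0.896. At Y2 the types on either side of astrocytes were OPC, with 15.2-fold (3.71 to 62.3), and CPN, with 2.24-fold (2.07 to 2.42), and the median was 1.17. In a fit with age as a term, the odds of an astrocyte were 9.31 times as high in batch 2 as in batch 1 (95% interval 2.59 to 33.4, log-odds difference 2.23 ± 0.574 SE, adjusted p = 0.0302, limma). The share was higher in batch 2 in both of the 2 within-age pairs. Over the 9 other types the replicate differences at D0 and Y2 had a correlation of -0.20, so those types did not differ alike in the 2 pairs.

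Astro was the 1 type of 10 that passed this test (10.0% of types). OPC gave an adjusted p of 0.297, and whether the batch difference of astrocytes exceeds that of OPC was not tested across types. In this fit limma pooled the spread of the 10 types completely, so the p-value rests on an SE common to all types. The residual SD of astrocytes was 0.189. The call was lost on the arcsine scale (adjusted p = 0.356), with the quasi-binomial model (0.399), without the age term (0.717) and without 3 clusters of other types drawn from 1 library (0.0587), and the difference was positive in each. A cluster counted as drawn from 1 library at a share of 90% or more, with the libraries of its leading age weighted equally. Astrocyte cluster 32, at 91.8%, also reached that limit but was kept. Over 11 tested alternatives the adjusted p ran from 0.00482 to 0.717. Batch, animal and number of nuclei moved together, since both libraries of batch 2 were larger than both of batch 1, and their parts cannot be told apart.

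**Figure D3:**
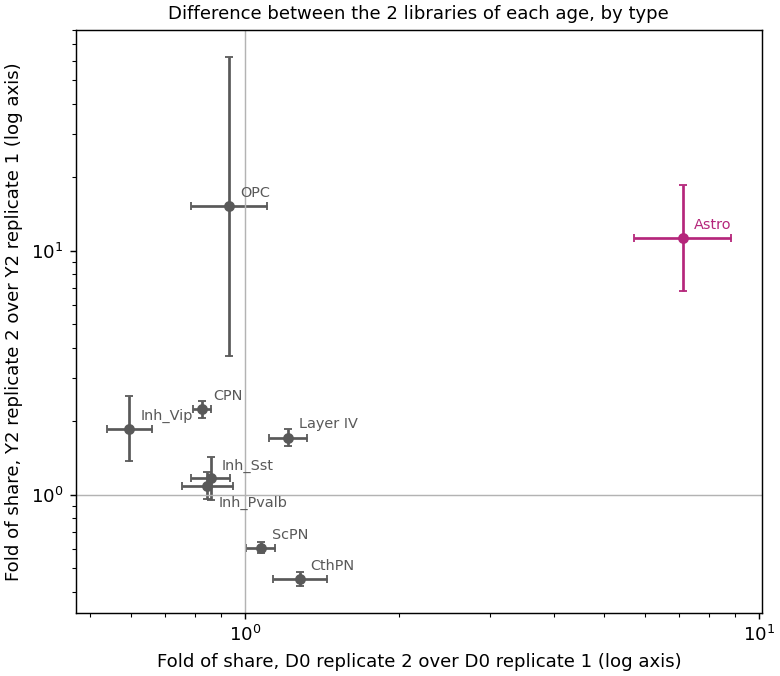
Fold of each type's share in replicate 2 over replicate 1 at D0 (x axis) and at Y2 (y axis), both on log axes, with bars for 95% counting intervals, astrocytes in magenta and the other types in grey. Astrocytes lie at 7.12 and 11.2, OPC at 0.933 and 15.2, and the neuronal types between 0.451 and 2.24 on both axes. Inh_Lamp5 is not drawn because no fold could be formed for it at D0.

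The same contrast was described by dividing the spread of each type's logit share over the 4 libraries into a part for age, a part for batch and a rest, as percentages of the sum of squares. For astrocytes batch took 73.2%, age 26.3% and the rest 0.524%. Batch took less in each of the other 9 types, of which Layer IV was next with 38.0%. For OPC age took 73.3% and batch 12.6%. Each part is a percentage of the type's own total, so a large batch part leaves less for the others, and with 4 libraries these percentages are a description.

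**Figure D4:**
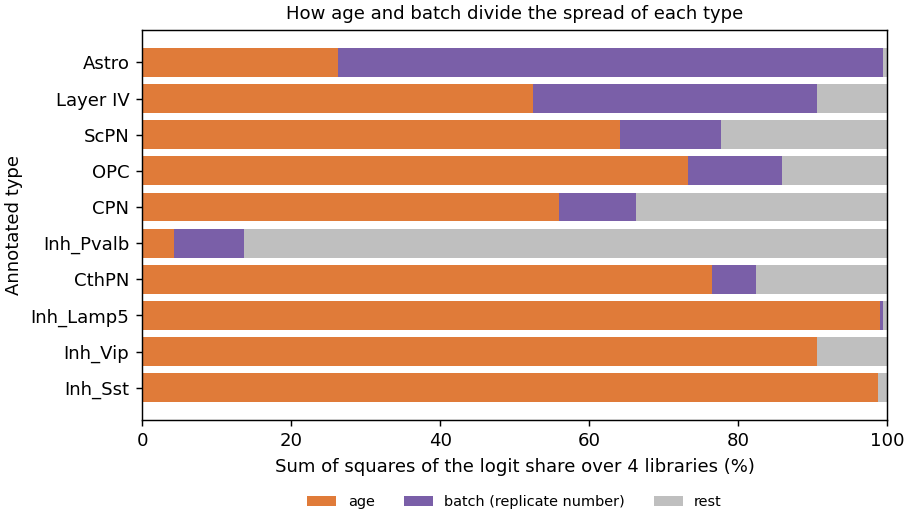
Percentage of the sum of squares of the logit share over the 4 libraries (x axis) taken by age (orange), batch (purple) and the rest (grey) for each annotated type (y axis). Astro has the largest batch part, 73.2%, and an age part of 26.3%.

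Ratios to the neurons of the same library leave the number of OPC out of the denominator. D0 replicate 1 had 1.39 astrocytes per 100 neurons and D0 replicate 2 had 10.8. Y2 replicate 1 had 0.286 and Y2 replicate 2 had 3.32. The D0 ratio was 4.86-fold the Y2 ratio in batch 1 (counting interval 2.84 to 8.29) and 3.24-fold in batch 2 (2.86 to 3.66). On the log2 scale the D0 mean of the ratio was -4.69 ± 2.08 (SD, n = 2). The Y2 mean was -6.66 ± 2.47 (SD, n = 2). The difference of -1.97 was smaller than either SD, and an exact two-sided permutation test gave p = 0.667.

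Projection neurons are here the excitatory types CPN, Layer IV, ScPN and CthPN together. Against them there were 1.93 and 14.1 astrocytes per 100 at D0 and 0.320 and 3.83 at Y2. The D0 ratio was 6.04-fold the Y2 ratio in batch 1 (3.54 to 10.3) and 3.68-fold in batch 2 (3.25 to 4.16). The log2 difference was -2.22 (exact permutation p = 0.667, n = 2 per age). Against interneurons, the inhibitory cells of local circuits, there were 4.91 and 45.7 per 100 at D0 and 2.65 and 25.3 at Y2. The D0 to Y2 fold was then 1.85 in batch 1 (1.08 to 3.18) and 1.81 in batch 2 (1.57 to 2.07), smaller than against projection neurons in both batches.

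Against OPC the direction turned. There were 0.446 astrocytes per OPC in D0 replicate 1, 3.40 in D0 replicate 2, 8 in Y2 replicate 1 and 5.91 in Y2 replicate 2. Both adult libraries lay above both neonatal ones. The ratio of Y2 replicate 1 rests on 2 OPC nuclei, and its counting interval of 2.05 to 31.2 includes the value of D0 replicate 2. The Y2 ratio was 18.0-fold the D0 ratio in batch 1 (counting interval 4.04 to 79.8) and 1.74-fold in batch 2 (1.28 to 2.36). The mean log2 ratio of the neonatal libraries was 0.30 ± 2.07 (SD, n = 2). That of the adult libraries was 2.64 ± 0.12 (SD, n = 2). The difference of 2.34 exceeded both SDs, and its two-sided exact permutation p was 0.33, below which a design with 2 libraries per age cannot go. Adjusted over the 3 ratios to neurons, projection neurons and OPC, every p was 0.667 (Benjamini-Hochberg, exact permutation).

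**Figure D5:**
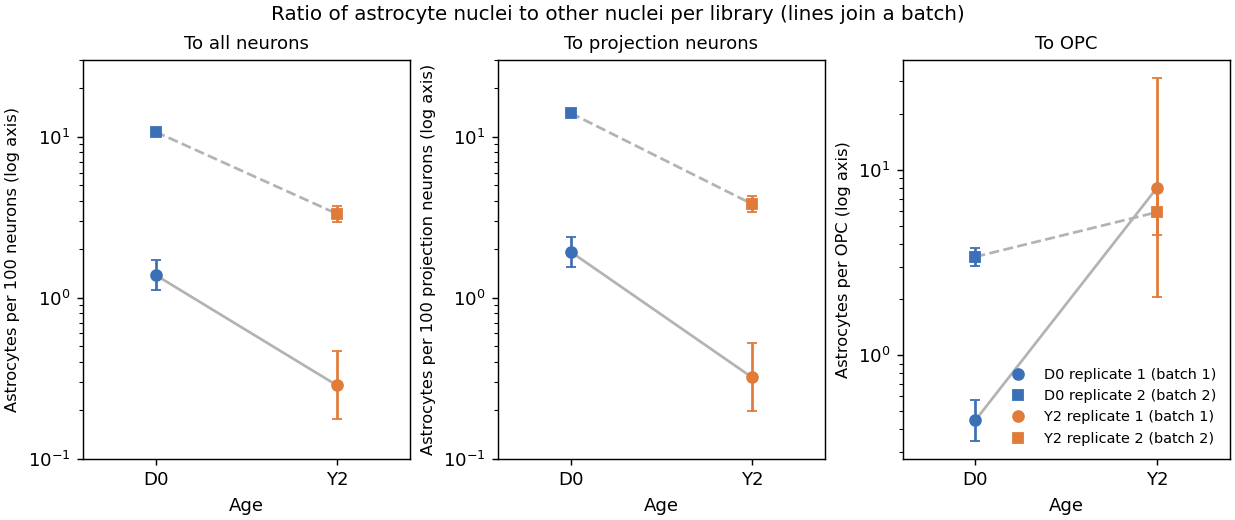
Astrocytes per 100 neurons, per 100 projection neurons and per OPC (y axes, log) at D0 and Y2 (x axis) in each library, with bars for 95% counting intervals and lines joining the libraries of a batch (solid for batch 1, dashed for batch 2). The first 2 ratios are lower at Y2 in both batches and the third is higher, with a wide interval for Y2 replicate 1, which held 2 OPC nuclei.

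Among the 2 glial types together, astrocytes were 30.8% (Wilson interval 25.7 to 36.5) of 279 glial nuclei in D0 replicate 1 and 77.3% (75.2 to 79.2) of 1728 in D0 replicate 2. They were 88.9% (67.2 to 96.9) of 18 in Y2 replicate 1 and 85.5% (81.7 to 88.7) of 387 in Y2 replicate 2. The intervals of the adult libraries overlapped, and that of Y2 replicate 1 also took in the whole interval of D0 replicate 2. D0 replicate 1 was the only library in which OPC outnumbered astrocytes.

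Set against each other type in turn, astrocytes were fewer per nucleus at Y2 in both batches for 5 of the 8 types present at both ages, more for 2, and of different direction in the 2 batches for 1. The 5 were the 4 projection neuron types and Inh_Pvalb. For CPN the D0 to Y2 fold was 1.51 in batch 1, with a counting interval of 0.881 to 2.60 that includes 1. The largest D0 to Y2 folds were against CthPN, 24.4 in batch 1 and 5.45 in batch 2. The 2 types in whose terms astrocytes were more numerous at Y2 were OPC and Inh_Vip, the vasoactive intestinal peptide interneurons. Per Inh_Vip nucleus there were 0.139 and 1.66 astrocytes at D0 and 0.308 and 1.86 at Y2, replicate 1 first. The Y2 to D0 fold was 2.21 in batch 1 (1.21 to 4.05) and 1.12 in batch 2, where the interval of 0.915 to 1.37 includes 1. These folds carry the age difference of the other type as well as that of astrocytes.

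Inh_Sst, the somatostatin interneurons, was the type for which the direction differed. Replicate 1 held 0.122 astrocytes per Inh_Sst nucleus at D0 and 0.116 at Y2, and replicate 2 held 1.01 and 1.12. The D0 to Y2 fold was 1.05 in batch 1 (counting interval 0.599 to 1.85) and 0.905 in batch 2 (0.760 to 1.08), and both intervals include 1. The 2 batches differed in this ratio 8.29-fold at D0 and 9.64-fold at Y2. Against every neuronal type the ratio was higher in replicate 2, by 5.56-fold to 11.9-fold at D0 over 7 types and by 5.03-fold to 24.9-fold at Y2 over 8 types.

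Astrocytes formed 1 cluster per age. Cluster 10 held all 1421 D0 astrocytes and cluster 32 all 347 Y2 astrocytes. By size they ranked 13th and 24th of 34 clusters, and 8th and 11th among the 17 clusters led by their age. This split by age was not particular to astrocytes, since most clusters of other types held 1 age alone. Inh_Pvalb and Inh_Vip also formed 1 cluster per age. The clusters were numbered over both ages, and only cluster 0 (CPN), cluster 17 (CthPN) and cluster 18 (OPC) held nuclei of both. Cluster 18 had 193 and 393 nuclei from the D0 and 2 and 56 from the Y2 replicates. With libraries weighted equally, D0 replicate 2 gave 87.7% of cluster 10 and Y2 replicate 2 gave 91.8% of cluster 32. Unweighted these were 93.9% and 95.4%. The 2 clusters ranked 5th and 4th of 34 in how much of them came from 1 library. The median over the 32 clusters of other types was 59.1%. Each astrocyte cluster holds every astrocyte of its age, so its weighted percentage is the fold between replicates in another form.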

How the data were processed

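Nuclei of flash-frozen marmoset cortex were sorted by DAPI and sequenced with a 10x Chromium 3′ kit. The authors processed reads with Cell Ranger 2.1.0 against a custom pre-mRNA transcriptome and brought libraries to equal complexity per nucleus. They filtered nuclei by detected genes, corrected them for batch in Seurat, and discarded nuclei for which the correction explained too little variance. The rest were clustered and named. Cluster numbers run from 0 to 35 for 34 clusters, so some numbers are absent. How nuclei removed by the authors were spread over types and libraries was not analysed here. The deposited table gives each retained nucleus a barcode, age, replicate, batch, cluster and type, as labels with no gene values. Doublet removal is not described in the methods or labels, and depth per nucleus was not analysed here. The labels name somatosensory cortex as the tissue, 1 field adds motor cortex, and the extraction text speaks of cerebellum.

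Nuclei were counted per library and type (Python 3.11.15, pandas 2.3.3). Libraries, 1 animal each, were the replicates. Shares were tested as logits after adding 0.5 nuclei, in 1 limma 3.58.1 fit (R 4.3.3) over the 10 types, with Benjamini-Hochberg adjustment and a threshold of 0.05. Ratios were tested as log2 values with 0.5 added to both counts, by two-sided exact permutation (numpy 2.4.6). Intervals are 95% Wilson, exact Poisson or log-ratio counting intervals (scipy 1.17.1) and cover counting error only. Replicate numbers came from the sample descriptions, since the titles number them otherwise, and pairing comes from the deposited batch column. The correlation over 10 types of the replicate differences at D0 and Y2 was 0.44, and -0.20 without Astro. Alternatives covered scale, model, block, added nuclei, denominator, types and each library left out. Other types were to be named where their folds bracket those of astrocytes. Layer IV, Inh_Pvalb and the types called for age were named after their values were seen. The members, markers and comparisons were chosen with earlier results of these data known.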

Additional observations from a re-analysis of the deposited data

Results flagged for a closer look

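The difference between batches had opposite directions at the 2 ages for astrocytes against OPC. There were 7.62-fold as many astrocytes per OPC in batch 2 as in batch 1 at D0 and 0.739-fold at Y2, and the counting interval at Y2 ran from 0.165 to 3.30 because Y2 replicate 1 held 2 OPC nuclei. The astrocyte share of glia, which is the same count in another form, was 2.51-fold at D0 and 0.962-fold at Y2. With 1 library per age and batch, the difference between the ages in this fold was not tested.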

How the results depend on the processing

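The age difference in astrocyte share kept its direction in 16 of 16 alternatives and passed the test in 1. Over the 4 fits that each lack 1 library its log-odds value ran from -2.55 to -0.126, and the value past the test, -2.55, was the one without Y2 replicate 2. With the replicate block it stayed -1.34 (adjusted p = 0.0787, limma), and the sign-flip test of the paired ratios cannot go below an exact p of 0.5. The value was also -1.34 with types merged into 4 classes and without Inh_Lamp5 on the logit scale. Like the block, these settings could change only its SE. Neurons only as denominator and leaving out OPC gave the same value, -1.36. The 16 alternatives are therefore not all separate checks of direction. By their titles D0 replicate 2 and Y2 replicate 1 would share a number, and that pairing was not run. The batch difference was 0.162 on the arcsine scale, 2.12 with the quasi-binomial model, 2.23 with no age term and 2.16 without the other types' clusters drawn from 1 library, and none of these 4 passed the test. The cause was not tested. It passed in the other 7, and with a library left out it ran from 2.04 to 2.42 as a value with no test. The fits without a D0 library return the difference between the Y2 libraries (2.42). Those without a Y2 library return that between the D0 libraries (2.04). The log2 differences with a library left out ran from -3.72 to -0.219 per neuron, from -3.99 to -0.449 per projection neuron and from 0.875 to 3.80 per OPC. The 3 types called for age (Inh_Lamp5, Inh_Sst and Inh_Vip; 5 at an unadjusted p under 0.05, limma) became 0 with the quasi-binomial model (1 unadjusted), 0 with types merged into 4 classes (1 unadjusted), 0 without Inh_Lamp5 on either scale (4 unadjusted each, chosen after seeing the data) and 1 to 5 with a library left out (the 5 include Astro). The 1 type called for batch became 0 in the 4 fits that lost Astro. Counting limits precision most in Y2 replicate 1, with 16 astrocytes and 2 OPC.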
